A study of Homo sapiens with 9 samples.

Results

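The 9p21 window studied here is the stretch of human chromosome 9 from 21960000 to 22460000 (hg19, as for all peak coordinates), which holds CDKN2A, CDKN2B, CDKN2B-AS1 and DMRTA1. Its members were all peaks of 6 deposited lists that overlapped the window, and they numbered 51 of 27469 peaks. The window was chosen from the same peak lists, as the place of the strongest CDK9 peak of DMSO cells by −log10 q. Its number of peaks and their rank are therefore a description, and no test was made of them. The lists come from chromatin immunoprecipitation and sequencing of A375 cells, a human melanoma line with mutant BRAF, with an antibody against DDX21 or CDK9. Cells were given DMSO (the solvent control), 25 µM A771726, or 25 µM A771726 together with nucleotides (called the combination below), for 24 h per the labels. A771726 is the active form of leflunomide and blocks DHODH, an enzyme of pyrimidine synthesis. There was 1 library for each pair of antibody and treatment, so differences between treatments come with no replicate error, and 3 input samples were not used here. The whole CDK9 lists comprised 3462 peaks (DMSO), 290 (A771726) and 3099 (combination), and those of DDX21 8321, 4375 and 7922. The sources used here give no read totals, and no list was checked against markers of the melanocyte lineage.

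CDKN2A and CDKN2B encode inhibitors of the cyclin D kinases and brake the cell cycle before DNA synthesis, and CDKN2A also gives rise to ARF, which protects p53 from MDM2. The region is among those most often lost or silenced in melanoma. CDKN2B-AS1, also called ANRIL, is a long noncoding RNA that starts beside CDKN2A, is read in the opposite direction to both coding genes and spans CDKN2B. DMRTA1 encodes a DM-domain transcription factor. The gene-poor stretch between CDKN2B-AS1 and DMRTA1 is known for enhancers in several cell types. CDK9, the catalytic subunit of P-TEFb, releases paused RNA polymerase II and is found at promoters, along transcribed genes and at active enhancers, and DDX21 is a nucleolar RNA helicase that is also found at promoters of genes read by RNA polymerase II.

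None of the 51 peaks lay at or in any of these genes. CDKN2B-AS1 ends at 22121096 and DMRTA1 begins at 22446840, and all 51 peaks fell in the 326 kb between them. The peak closest to CDKN2B-AS1 began 20.6 kb past its end, and the peak closest to DMRTA1 ended 228 kb before its start. In the RefSeq gene table CDKN2B and the pseudogene UBA52P6 lie inside CDKN2B-AS1, and CDKN2A starts before it and overlaps its beginning. With this arrangement every peak was at least 20.6 kb from the promoters of CDKN2A and CDKN2B as well. The table lists 0 genes that start after the end of CDKN2B-AS1 and end before DMRTA1. It is of build GRCh38, so only the order and nesting of genes were taken from it, and distances to single start sites of CDKN2A and CDKN2B were not computed. A peak list holds no signal below the caller's threshold, and binding below it at these promoters was not measured.

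The promoters on either side of the stretch are shown because neither CDK9 nor DDX21 had a peak there under any treatment. The sequences are the 250 bases before the start in RefSeq (GRCh38.p14), 5′ to 3′ on the strand of the gene, with CG dinucleotides in capitals. The CDKN2B sequence is on the minus strand at chr9:22009306-22009555 and the DMRTA1 sequence on the plus strand at chr9:22446574-22446823.
CDKN2B: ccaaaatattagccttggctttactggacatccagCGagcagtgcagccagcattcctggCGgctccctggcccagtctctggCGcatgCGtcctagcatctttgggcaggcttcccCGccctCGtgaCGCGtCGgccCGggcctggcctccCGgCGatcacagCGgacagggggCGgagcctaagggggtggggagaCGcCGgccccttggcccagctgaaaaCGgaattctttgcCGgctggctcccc
DMRTA1: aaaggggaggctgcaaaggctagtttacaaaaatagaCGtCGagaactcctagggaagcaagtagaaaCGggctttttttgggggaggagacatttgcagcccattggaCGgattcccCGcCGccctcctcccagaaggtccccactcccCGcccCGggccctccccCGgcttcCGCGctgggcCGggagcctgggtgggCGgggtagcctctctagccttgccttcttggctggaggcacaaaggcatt
The CDKN2B promoter held 18 CG dinucleotides and the DMRTA1 promoter 13, against a median of 11 over 35116 promoter entries. The CDKN2B-AS1 promoter held 31, and the 2 entries for CDKN2A, one for each first exon, held 24 and 20. As many as in CDKN2B-AS1 were found in 10.9% of all entries, and as many as in DMRTA1 in 46.6%. The TATA motif TATAA, searched on both strands, was in none of the 5 member sequences and in 18.9% of all entries. All 5 member sequences held more CG dinucleotides than the median entry. None of the 6 lists had a peak at these genes, but the share of all promoter entries with a peak was not computed. Nothing particular to these promoters is therefore read from the absence of peaks.

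DDX21 had no peak in the window. The 8321, 4375 and 7922 peaks of its lists included 0 here, which allows shares of up to 0.0361%, 0.0686% and 0.0379% (3 counts of the total, for counting error only). The stretch of equal length before the window held 1, 0 and 1 DDX21 peaks under DMSO, A771726 and the combination. The one after it held 0 in each list. The number expected in a window of this length was not computed, so the absence is not read as particular to the locus. The DDX21 peak closest to the CDK9 sites lay from 21802384 to 21802734 in DMSO, 157 kb before the window and 339 kb before the closest CDK9 site, with a fold enrichment of 7.02 and a rank of 5424. It was also there in the combination, from 21802484 to 21802655, and no DDX21 peak was there with A771726. On the other side the closest DDX21 peak of the DMSO list was 1370 kb past the window. In DMSO a CDK9 peak, from 21802562 to 21802873 at rank 691, overlapped that DDX21 peak.

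**Figure D1:**
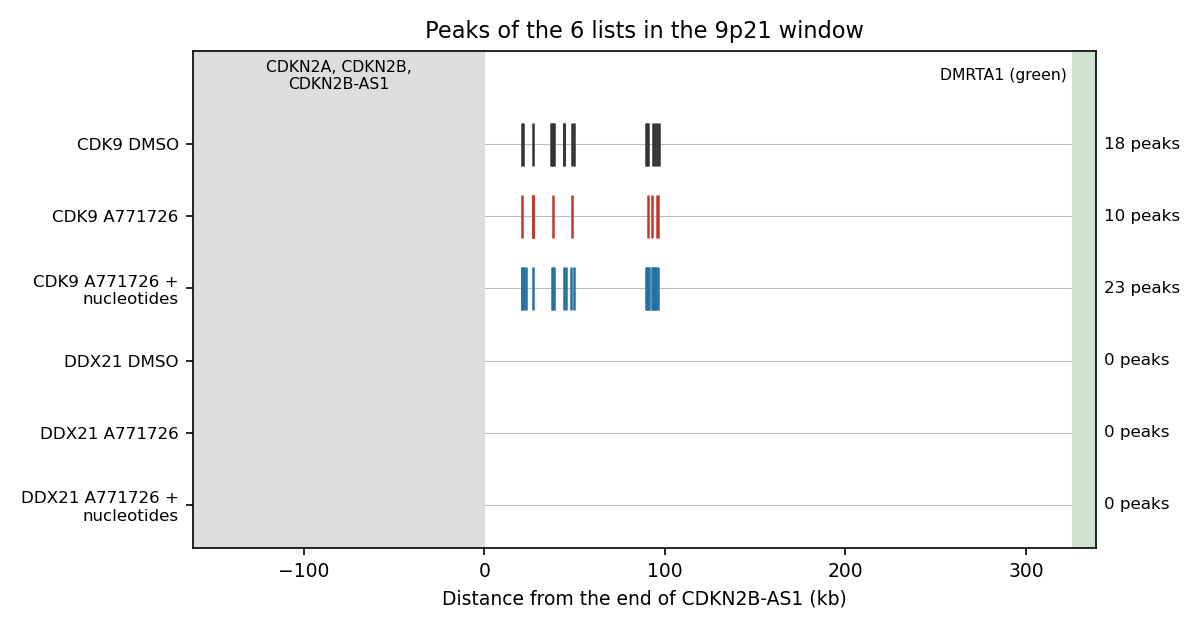
Peaks of the 6 lists in the window, by distance in kb from the end of CDKN2B-AS1 (x axis) and library (rows), each tick 1 peak at its midpoint. The 18, 10 and 23 CDK9 peaks stood in a pair of blocks in the gene-free stretch, the rows of DDX21 were empty, and the grey and green genes held no peak.

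For CDK9 the window had 18 peaks under DMSO, 10 under A771726 and 23 under the combination. These were 0.520% (95% interval 0.308 to 0.820), 3.45% (1.67 to 6.25) and 0.742% (0.471 to 1.11) of the whole lists. The intervals are exact binomial ones (Clopper-Pearson), cover counting error alone and take each peak as independent. Under A771726 the window therefore held fewer peaks but a larger part of a much shorter list. When every CDK9 list was cut to its top 290 peaks, the window held 8, 10 and 8, so the lower number under A771726 depends on list length. Of the CDK9 peaks on chromosome 9, 10.8% fell in the window under DMSO and 14.3% under the combination, and 10 of 20 did under A771726. The stretches of equal length on both sides were nearly empty. The one before the window held 2, 1 and 5 CDK9 peaks under the same treatments, and the one after it held 1, 0 and 0. The DMSO peaks nearest to the edges were at rank 691 before and rank 1237 after the window.

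The CDK9 peaks formed 2 blocks. Peaks of the 3 lists that overlapped were joined into sites, which gave 21 sites over 76.8 kb, with the longest gap, 39.4 kb, between the blocks. The split at this gap was made after the values were seen. The near block, closer to CDKN2B-AS1, ran from 22141715 to 22170877 with 13 sites in 29.2 kb. The far block ran from 22210307 to 22218536 with 8 sites in 8.23 kb. The near block was sparse, with peaks over 13.4% of its length in DMSO, 3.27% in A771726 and 14.9% in the combination. The far block was denser in DMSO and in the combination, with peaks over 68.5% and 66.9% of it, while in A771726 they covered 8.36%. The near block held 11, 6 and 12 peaks and the far block 7, 4 and 11. Fewer bases under peaks in both blocks with A771726 went with shorter peaks. Over the whole A771726 list the median width was 96 bp, against 186 bp in the other CDK9 lists. In the window the medians were 388 bp (DMSO), 94 bp (A771726) and 293 bp (combination), a larger difference than in the whole lists.

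The strongest site of the window lay in the near block, 37.8 kb past CDKN2B-AS1. In DMSO its peak spanned 22158906 to 22159453, was enriched 10.3-fold over the local background and held rank 1 of 3462 by −log10 q. In the combination it spanned 22158937 to 22159470, was enriched 13.4-fold and again held rank 1. In A771726 it spanned 22158994 to 22159393, was enriched 6.02-fold and held rank 24 of 290. Ranks in lists of such different lengths do not show a change. The summits of the 3 lists were within 47 bp of each other.

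For values closer to the reads, the fragments stacked over each summit (the pileup) and the local background were solved for from the deposited fold enrichment and p-value. To set libraries side by side, each pileup was divided by the smallest background found in the same list, and the quotient is called the height. That smallest background is taken to scale with tags and fragment length, and was 1.17 fragments for DMSO, 0.521 for A771726 and 1.24 for the combination. The low value of A771726 went with a shortest peak of 50 bp, against 128 and 129 bp. The strongest site had a pileup of 95 fragments under DMSO, 35 under A771726 and 105 under the combination, and heights of 81.1, 67.2 and 84.4. The raw pileup under A771726 was thus far below the others, and the height was 0.828 times that of DMSO.

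At the next strongest site of the near block both treated libraries were lower than DMSO. The DMSO peak, from 22147625 to 22148652, was enriched 9.74-fold and at rank 5. The combination had a peak from 22147739 to 22148670, enriched 9.21-fold and at rank 9. In A771726 this site was broken into 3 peaks, starting at 22147926, 22148044 and 22148216, with fold enrichments of 5.05, 5.73 and 6.72. Its heights were 70.9 (DMSO), 53.8 (A771726) and 57.9 (combination). At the block's edge toward CDKN2B-AS1, a peak from 22142020 to 22142371 was at rank 246 in DMSO and a peak from 22141968 to 22142319 at rank 31 in the combination. Their pileups were nearly equal, with 49 and 50 fragments, while the local background was 9.70 in DMSO and 4.16 in the combination, and A771726 had a 50 bp peak with 13 fragments. Heights were 41.9, 25.0 and 40.2 in the order DMSO, A771726 and combination, so the difference in rank between DMSO and the combination came with a difference in background and not in pileup. Toward the end of the block, the site from 22169106 to 22169653 had heights of 24.8, 19.2 and 22.5.

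The far block had broader peaks. Its widest belonged to the combination, from 22216439 to 22218536, with a width of 2098 bp, an enrichment of 5.79-fold and rank 53. In DMSO the same place had a peak from 22215808 to 22217577, 1770 bp wide, enriched 8.35-fold and at rank 18. A further DMSO peak there ran from 22217661 to 22218350. Over the whole site, peaks covered 2460 bp in DMSO and 2535 bp in the combination, so the peak widths differed more than the bases covered. In A771726 the site had only a pair of short peaks, from 22216768 to 22216853 and from 22216918 to 22217137, enriched 7.15-fold and 4.40-fold. Heights at this site were 60.6 for DMSO, 34.6 for A771726 and 52.3 for the combination, and the ratio of A771726 to DMSO, 0.570, was the lowest of the 7 sites where both had a peak. The summits in the 3 lists were nevertheless within 29 bp.

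The site from 22211401 to 22212343 was among the stronger ones of all 3 lists. It was enriched 10.8-fold in DMSO at rank 22, 8.27-fold in A771726 at rank 32 and 12.0-fold in the combination at rank 5. Heights were 46.1, 40.3 and 55.5. The last far site with an A771726 peak, from 22214004 to 22215116, had heights of 27.3, 25.0 and 26.5, although the A771726 peak there was only 50 bp wide. A width of 50 bp was the shortest in that list, so width and height at this site went apart.

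**Figure D2:**
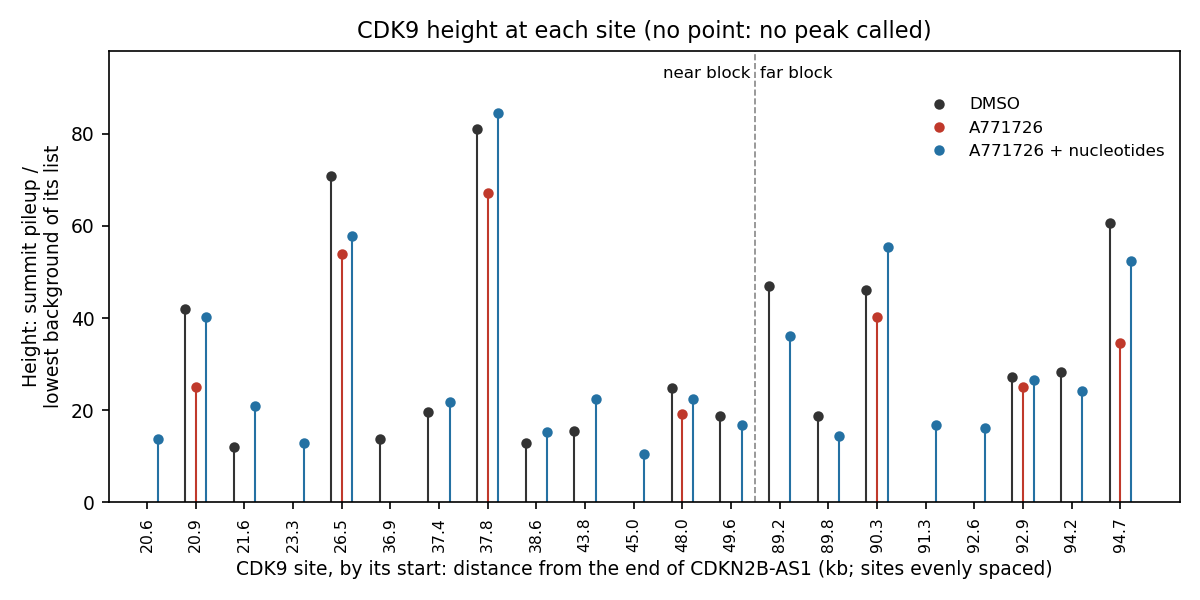
Height (summit pileup over the smallest background in the same list, y axis) at the 21 CDK9 sites in order along the chromosome (x axis, labelled by distance in kb), with 1 point per library and no point where no peak was called. A771726 had a point at 7 sites, below DMSO at each of them (height ratios of 0.570 to 0.913), and the strongest site was the same in all 3 libraries.

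Of the 21 sites, 16 had a DMSO peak, 7 an A771726 peak and 20 a peak of the combination. All 7 sites with an A771726 peak also had a peak in both other lists, and none was found with A771726 alone. A further 8 sites had a peak in DMSO and the combination but not in A771726, 1 only in DMSO and 5 only in the combination. Heights at the 7 shared sites were lower with A771726 than in DMSO in each case, with a median ratio of 0.775. For the combination the ratio to DMSO had a median of 0.961 over 15 sites and ran from 0.770 to 1.75, with 9 of the 15 below 1. These ratios rest on 1 library each, and only sites with a called peak could enter them. All heights of a list share its smallest background, a minimum over 290 peaks for A771726 and over 3462 for DMSO. How far list length affects that minimum, and with it all 7 ratios together, was not tested. Over all 187 CDK9 DMSO peaks with an A771726 peak the median height ratio was 0.948 (quartiles 0.764 and 1.31), and over the 7 such peaks of the window it was 0.775 (0.677 and 0.851). Among the highest decile of DMSO peaks by −log10 q it was 0.793 over 6 peaks here and 0.843 over 97 elsewhere, with quartiles of 0.698 and 1.02 for the latter. The A771726 heights of the window were thus in the range of other strong sites.

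Counted by peaks, 7 of the 18 DMSO peaks overlapped an A771726 peak by at least 1 bp, a share of 38.9% (17.3 to 64.3), against 5.40% of the whole DMSO list. The window's peaks were stronger than most, and 8 of the 18 were in the highest decile of the list. Within that decile, 6 of 8 had an A771726 peak (interval of the share 34.9 to 96.8%), against 29.7% of all 347 peaks of the decile. Below it, 1 of 10 had one, against 2.70% of the list below the decile. The interval lies above 29.7%, but these peaks share a locus and a library and are not independent, and the window was chosen with the lists known, so nothing particular to the locus is read from it. The share also depends on how peaks are counted, and 6 of 8 DMSO peaks had an A771726 peak when peaks within 1 kb were merged. The near block gave 4 of 11 and the far block 3 of 7. In the other direction, all 10 A771726 peaks lay on a DMSO peak, against 77.6% of that list, and all 10 lay on a peak of the combination, against 76.6%. These counts take any overlap of at least 1 bp. With summits at most 250 bp apart, 8 of the 10 A771726 peaks had a DMSO peak, and with equal list lengths 9 of 10.

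The strongest DMSO peaks of the window that had no A771726 peak were in the far block. The peak from 22210307 to 22210696 had 55 fragments, a fold enrichment of 6.49 and rank 78. The peak from 22215340 to 22215738 had 33 fragments, 8.09 and rank 149. They were followed by a near peak from 22158456 to 22158841, which had 23 fragments, 5.49 and rank 934, and lay directly beside the strongest site. The 11 DMSO peaks without an A771726 peak had pileups of 14 to 55 fragments and reached down to rank 3371.

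In the combination, 17 of the 18 DMSO peaks were found again, or 94.4% (72.7 to 99.9), against 45.2% of the whole list. In the highest decile it was 8 of 8, against 91.6% of that decile, and below it 9 of 10 (interval of the share 55.5 to 99.7%), against 40.0% of the list below the decile. These shares count any overlap of at least 1 bp, and with summits at most 250 bp apart 15 of the 18 DMSO peaks were found again. The window's DMSO peaks were also wider than those of the list, with medians of 388 and 186 bp. The intervals for the combination take peaks of the same library and chosen window as independent, so nothing particular to the locus is read from them. By overlap, the DMSO peak that was not found ran from 22158003 to 22158157 with 16 fragments, at rank 3035. Seen from the combination, 18 of its 23 peaks lay on a DMSO peak, or 78.3% (56.3 to 92.5), against 50.6%. The 5 others had 13 to 21 fragments and ranks of 1303 to 2934. The strongest of them ran from 22212436 to 22212728.

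CDK9 peaks of the window did not overlap DDX21, which follows from the lack of DDX21 peaks there and is no further result. The overlap was 0 of 18 peaks for DMSO, 0 of 10 for A771726 and 0 of 23 for the combination, which allows shares of up to 16.7%, 30.0% and 13.0%. Over the whole CDK9 lists 17.8%, 15.5% and 13.6% of peaks lay on a DDX21 peak. These shares of whole lists are close to or below the limits, so with so few peaks a difference from the whole lists was not detectable. The CDK9 peak at rank 1 by −log10 q in DMSO, for which the window was chosen, had no called DDX21 peak within 339 kb.

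By its median, local background at the window was near that of the whole list in DMSO and A771726 and below it in the combination. In DMSO it ran from 2.77 to 9.70 fragments with a median of 4.34, and the median over the whole list was 4.16. In A771726 the medians were 1.64 and 1.66, and in the combination 3.46 and 4.85. The highest pileup in the window, 105 fragments, was well under the maxima of 256 and 258 in the lists of DMSO and the combination. Median fold enrichment was 4.57 in the window and 4.46 over the list in DMSO, 5.88 and 5.81 in A771726, and 5.79 and 4.29 in the combination. By −log10 q, 12 of the 18 DMSO peaks and 18 of the 23 peaks of the combination were in the upper 50% of their lists. In DMSO its ranks ran from 1 to 3371, with 5 peaks in the top 100, and in the combination from 1 to 2934, with 6 in the top 100.

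**Figure D3:**
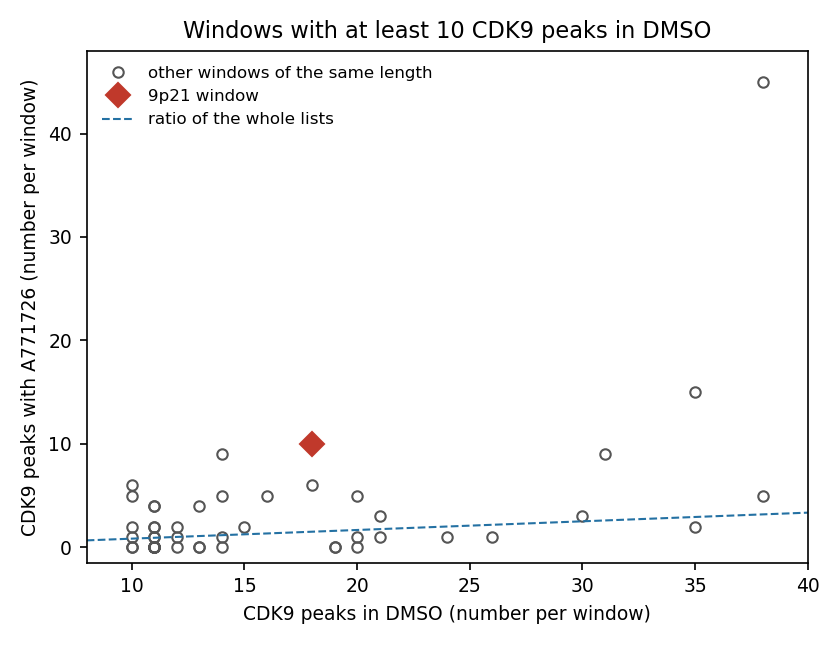
Number of CDK9 peaks per 500 kb window under DMSO (x axis) and under A771726 (y axis) for the 47 other windows with at least 10 DMSO peaks (open circles, some of which coincide) and for the 9p21 window (filled diamond), with the ratio of the whole lists as a dashed line. The 9p21 window, at 18 and 10, lay above the dashed line, as did 24 of the 47 others.

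The genome was cut into windows of the same length, counted from the first base of each chromosome, to place 9p21 among others. In DMSO 15 windows held more CDK9 peaks than its 18, and in the combination 9 held more than its 23. In A771726 only 2 held more than its 10. They were the windows of chromosome 2 from 224500001 to 225000000, with 45 peaks, and of chromosome 11 that began at 65000001, with 15. Per 100 DMSO peaks the 9p21 window held 55.6 A771726 peaks, against 8.38 over the whole lists and a median of 9.09 over the 47 other windows with at least 10 DMSO peaks. Of these 47, 3 had a higher value, and 16 had no A771726 peak. This value depends on how peaks are counted, since short A771726 peaks split sites and DMSO peaks cluster. By site, 7 had an A771726 peak and 16 a DMSO peak. With peaks within 1 kb merged, the window held 7 A771726 and 8 DMSO peaks. Neither count was set against the other windows. No DDX21 peak in any list was found in 13 of the 47, or 27.7%, so the lack of DDX21 at 9p21 is shared with some other CDK9-rich windows.

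The windows most alike 9p21, by the Euclidean distance between the percentages of the 6 lists they held, were on chromosomes 17, 3 and 13. The one on chromosome 17 from 57500001 to 58000000 held 14, 9 and 14 CDK9 peaks under DMSO, A771726 and the combination, but 4 DDX21 peaks in each list. The one on chromosome 3 from 149000001 to 149500000 held 31, 9 and 26, with 2, 1 and 2 DDX21 peaks. The one on chromosome 13 from 80500001 to 81000000 held 18, 6 and 16 and, like 9p21, no DDX21 peak. The distances were 0.479, 0.521 and 1.40 percentage points over 6 libraries. Distances of this kind are weighted toward the A771726 list, where 1 peak is a larger percentage than in the others.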

How the data were processed

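Peak lists of 6 immunoprecipitated libraries, 1 per antibody and treatment, were read, and samples were grouped by their titles. Per the submitters' processing notes, the tools and build were Bowtie, MACS2 2.0 and hg19, and their roles, settings and controls are not given in the sources. The deposited lists give for each peak a fold enrichment (the ratio of summit to local background), −log10 p and −log10 q as the authors' peak caller wrote them, and the lowest −log10 q was 1.30 to 1.35. There is 1 list for each library.

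The window, its members and the lists were chosen with earlier results of these data known. Gene ends are the hg19 positions given with the window, and the start sites of CDKN2A and CDKN2B were not used, since no hg19 annotation was at hand. For the same reason a planned count at cell cycle genes was not made. Of 4 members, 4 matched the RefSeq promoter table. Peaks were ranked within a list by −log10 q, then −log10 p and fold. The text gives the top 5 peaks of each CDK9 list in the window, all sites with an A771726 peak, the top 3 DMSO peaks without one, the 3 most alike windows and those with more A771726 peaks. The 15 windows with more DMSO peaks are counted and not all named.

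Pileup and background were taken as the whole number that met both fold = (pileup + 1)/(background + 1) and the Poisson upper tail, with an error in −log10 p under 0.001 for each peak of each list. The method and the overlap step were tested on simulated data. Where a site had several peaks of a list, the height is that of the peak with the highest −log10 q. No p-value was computed, for want of replicates. Alternatives were keeping only −log10 q values of 5 or more, merging within 1 kb, equal list lengths, overlap of 50% of the shorter one, summits at most 250 bp apart, the gene-free stretch alone, promoters within 5 kb in place of 1 kb, and shifted windows. Work was done in Python 3.11.15 with pandas 2.3.3, numpy 2.4.6 and scipy 1.17.1.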

Additional observations from a re-analysis of the deposited data

How the results depend on the processing

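Of 90 alternatives, all planned, 80 stayed within the 95% interval of the share reported or, for a number of peaks or windows, within 1.5 times it. Another 10 moved, and none could reverse, since a count has no sign. Many could not move: all 51 peaks lie in the gene-free stretch, so keeping that stretch alone changed nothing, and counts of 0 for DDX21 and for peaks at member genes were 0 throughout. With peaks within 1 kb merged, the window held 8 CDK9 peaks in DMSO and 9 with nucleotides, A771726 peaks met 6 of 8 DMSO peaks (75%) and peaks with nucleotides met all 8 (100%). With equal list lengths (the top 290), the DMSO list and the list with nucleotides each held 8 peaks here, fewer than the 10 with A771726, and 75% of those in DMSO had an A771726 peak. The order of the peak numbers between DMSO and A771726 thus depends on list length. A −log10 q of at least 5 left 4 A771726 peaks of 10, with 13 in DMSO. With windows shifted by 200 or 250 kb, 1 window instead of 2 held more A771726 peaks than 9p21. No paired analysis was possible because each group has 1 library and no replicate numbers. Read depth is unknown, and the A771726 peaks here rest on 10 to 35 fragments at the summit.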
